A study of Mus musculus with 6 samples.

Results

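Hermansky-Pudlak and lysosome-related organelle genes encode the sorting machinery that delivers enzymes and transporters from endosomes to melanosomes, the pigment organelles of melanocytes. The account covers 10 genes chosen by symbol, whose loss is known to dilute coat or skin pigment: Dtnbp1 and Bloc1s6 of BLOC-1, Hps3, Hps5 and Hps6 of BLOC-2, Hps1 and Hps4 of BLOC-3, Ap3b1 and Ap3d1 of the adaptor complex AP-3, and Lyst. All 10 were found among the 36528 gene models of the files. The rule that picks them uses their names, but the list was chosen with earlier results of these data known. Shares of all genes set beside these 10 are therefore a description and no independent test. PolyA RNA was sequenced from primary mouse melanocytes of skin, in 3 libraries labelled BAP1 KO (knockout) and 3 libraries labelled WT (wild type). The sources used here give no strain, no age, no treatment and no word on how the deletion was made. BAP1 is an enzyme of the nucleus that removes ubiquitin from histone H2A. The labels do not say whether the libraries of a group came from separate animals or cultures, so the p-values speak only of the spread among these 6 libraries, and that spread may be technical.

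In melanocytes, AP-3 gathers cargo such as tyrosinase into vesicles that bud from endosomes. BLOC-1 forms the tubules that carry cargo such as TYRP1 from recycling endosomes towards melanosomes, and BLOC-2 steers those tubules to their target. BLOC-3 is the exchange factor that switches on the GTPases RAB32 and RAB38, and LYST, a giant BEACH domain protein, sets the size of lysosomes and of related organelles. In people, loss of BLOC or AP-3 subunits gives Hermansky-Pudlak syndrome, with albinism and bleeding, and loss of LYST gives Chediak-Higashi syndrome; the matching mouse strains carry names such as pale ear (Hps1), light ear (Hps4), cocoa (Hps3), ruby-eye (Hps6), sandy (Dtnbp1), pallid (Bloc1s6), pearl (Ap3b1), mocha (Ap3d1) and beige (Lyst).

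Totals ran from 36447473 to 43773769 reads in the BAP1 KO-labelled libraries and from 33987690 to 40025282 reads in the WT-labelled ones. The 10 genes were well covered, from 499 reads (Hps6, in 1 WT-labelled library) to 12592 reads (Ap3d1, in 1 BAP1 KO-labelled library). In CPM, reads scaled to library size, Bap1 itself stood at 73.6, 77.3 and 72.5 CPM in BAP1 KO-labelled libraries and at 55.7, 55.6 and 55.8 CPM in WT-labelled libraries, so the level of the targeted gene went against the knockout label. The counts pool all exons, and a deletion of part of the gene need not remove its reads. Every direction given here therefore rests on the labels alone. The labelled cell type was checked against its markers. All 10 melanocyte markers were read in all 6 libraries, with a summed level of 62787 to 63596 CPM in the BAP1 KO-labelled libraries and 6530.2 to 6627 CPM in the WT-labelled ones, and all 10 were higher in BAP1 KO-labelled libraries. In the same libraries 19 of 20 keratinocyte markers passed the count filter and all 19 were lower. Their summed level was 966 to 1016 CPM in BAP1 KO-labelled libraries and 13036 to 13274 CPM in WT-labelled libraries. In the WT-labelled libraries the keratinocyte markers thus summed to more than the melanocyte markers, with Krt14 at 2001 ± 90.6 CPM and Cdh1 at 2018 ± 30.7 CPM beside Tyrp1 at 2797 ± 7.38 CPM (SD, n = 3 each), so that these libraries go against a label of melanocytes alone. The sums cover lists of unlike size, 20 and 10 genes. Other keratinocyte markers were low in the WT-labelled libraries, with means of 4.88 (Krt15), 4.08 (Lor), 2.94 (Krt10) and 0.13 CPM (Krt1). Fibroblast markers moved likewise (14 lower and 1 higher of 15 tested, 164 to 175 CPM in BAP1 KO-labelled libraries against 1196 to 1229.9 CPM in WT-labelled libraries), with Dpt under 0.1 CPM and Lum under 1 CPM in both groups. Macrophage markers (7 higher, 3 lower of 10), Schwann cell markers (8 higher, 3 lower of 12) and the 3 endothelial markers tested of 8 (2 higher, 1 lower) summed to 243 to 250.9, 4092 to 4098 and 48.8 to 53.9 CPM in the BAP1 KO-labelled libraries, against 69.8 to 76.8, 1756 to 1837 and 14.7 to 15.7 CPM in the WT-labelled ones. Sox10, at 960 CPM in BAP1 KO-labelled and 198 CPM in WT-labelled libraries, is counted among both the melanocyte and the Schwann cell markers. Single genes weighed heavily in 2 sums. Lyz2 among macrophage markers averaged 177 CPM in BAP1 KO-labelled and 22.6 CPM in WT-labelled libraries. Vwf among endothelial markers averaged 38.6 and 5.60 CPM. Of the 8 endothelial markers, 6 averaged under 1 CPM under each label. In bulk RNA, fewer cells of a type and less RNA per cell cannot be told apart, and the part of these markers in the results below was not tested.

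Promoter windows of RefSeq (build GRCm38.p6, 250 bases before to 50 after each start) were matched for 9 of the 10 genes. No window was matched for Bloc1s6. The other genes gave 10 windows, 2 of them for Hps1. They are shown here for the 3 genes whose window holds CACGTG, letters that MITF, the master transcription factor of melanocytes, and its relatives TFEB and TFE3 can bind. CACGTG reads the same on both strands. Capitals mark CACGTG and, in Hps1, also CATGTG, another set of letters that MITF can bind.
Hps3 (chr3:20035261-20035560, minus strand): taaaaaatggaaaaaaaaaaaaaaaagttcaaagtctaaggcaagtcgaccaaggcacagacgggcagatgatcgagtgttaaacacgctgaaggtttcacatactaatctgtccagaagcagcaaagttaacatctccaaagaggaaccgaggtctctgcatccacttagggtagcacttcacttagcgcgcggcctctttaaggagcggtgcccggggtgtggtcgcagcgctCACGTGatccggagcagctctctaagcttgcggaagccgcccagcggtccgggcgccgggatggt
Hps5 (chr7:46795832-46796131, minus strand): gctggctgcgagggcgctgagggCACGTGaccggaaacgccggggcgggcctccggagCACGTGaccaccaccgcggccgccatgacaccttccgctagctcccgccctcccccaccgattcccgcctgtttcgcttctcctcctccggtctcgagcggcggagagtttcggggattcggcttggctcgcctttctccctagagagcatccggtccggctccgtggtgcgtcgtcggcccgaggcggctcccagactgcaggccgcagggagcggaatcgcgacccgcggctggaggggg
Hps1 (chr19:42779929-42780228, minus strand): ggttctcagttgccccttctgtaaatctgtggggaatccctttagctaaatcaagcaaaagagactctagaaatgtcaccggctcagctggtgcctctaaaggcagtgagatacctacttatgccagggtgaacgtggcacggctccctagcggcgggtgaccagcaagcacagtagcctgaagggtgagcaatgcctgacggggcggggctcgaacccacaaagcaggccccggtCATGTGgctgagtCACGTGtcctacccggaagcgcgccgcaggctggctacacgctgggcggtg
CACGTG stood in 3 of the 10 windows, against 7.15% of the 32851 windows of the table. The 10 windows were richer in GC, with a median of 65.2% against 52.7% over all windows, and the share of windows with CACGTG at matched GC was not tested. All 3 also held TCACGTG, on one strand or the other, which overlaps CACGTG and occurred in 3.77% of all windows. CATGTG, searched on both strands, stood in 1 of the 10 windows, that of Hps1, against 14.2% of all. In Hps3 the letters begin at position -15 from the start, in Hps1 at -1 (CACGTG) and -14 (CATGTG), and in Hps5 at -227 and -192. Positions count from the start on which each window is built, which in these 3 genes lies inside the gene bounds given below. Of the genes with a match, Hps3 and Hps5 were higher in BAP1 KO-labelled libraries and Hps1 was not called; the windows of Lyst, Dtnbp1, Hps4, Hps6, Ap3b1 and Ap3d1, which were higher as well, hold none of these letters. Mitf itself stood at 262 ± 3.93 CPM in the BAP1 KO-labelled libraries and 52.3 ± 5.66 CPM in the WT-labelled ones (SD, n = 3 each). A match is a description of the letters, not a binding site.

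Of the 10 genes, 8 were higher and 0 lower in the BAP1 KO-labelled libraries, and 2 did not pass the test (edgeR's quasi-likelihood test, Benjamini-Hochberg adjusted p under 0.05 over all genes tested). Among all 17121 genes tested, 39.4% were called higher and 42.1% lower, 81.5% together, so that a call in itself sets no gene apart here. The median log2 fold change, BAP1 KO over WT, was 0.89 for the 10 genes and -0.03 for all genes tested. More than 2-fold higher were 5 of the 10, namely Lyst, Hps3, Hps5, Dtnbp1 and Hps4, against 13.9% of all genes tested, and 0 were more than 2-fold lower, against 22.7%. For 9 of the 10 no library of one label fell within the range of the other, which is close to the 82.7% of all genes tested and is therefore no result about these genes. At an unadjusted p under 0.05, 1 gene, Hps1, was lower, and DESeq2 and limma-voom called 0 of the 10 lower.

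**Figure D1:**
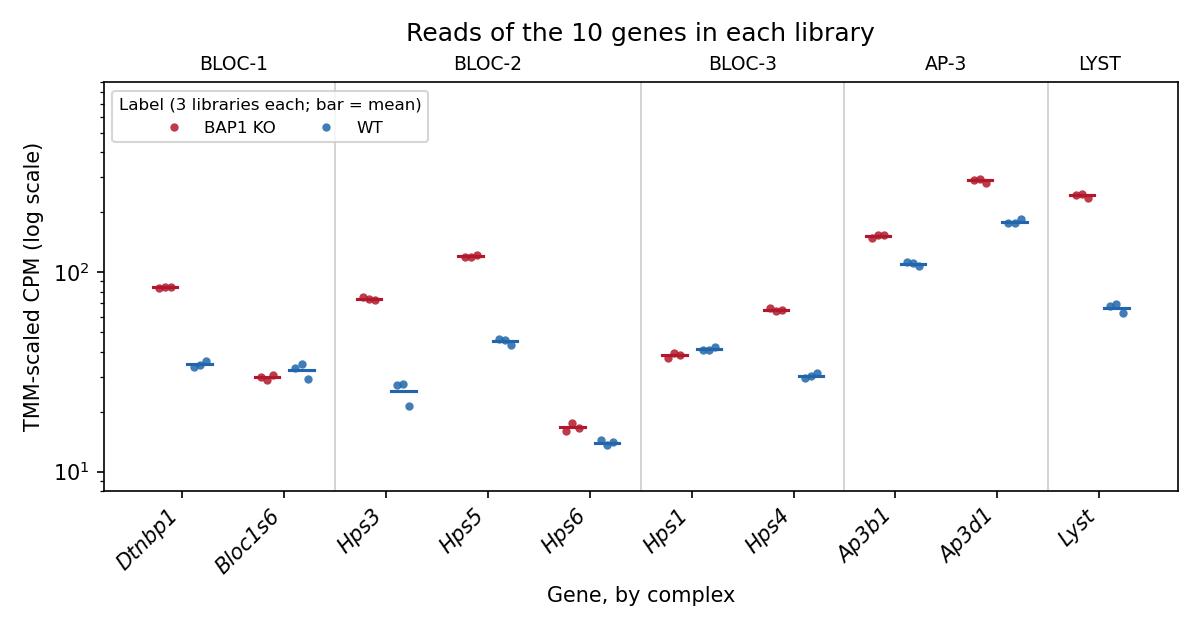
Level of each of the 10 genes in each library, in TMM-scaled CPM (log axis), by complex; each point is a library and each bar the mean of 3. Lyst, Hps3, Hps5, Dtnbp1 and Hps4 stand well above their WT values in all 3 libraries labelled BAP1 KO, whereas the values of Bloc1s6 overlap between the labels and those of Hps1 lie close together without overlap.

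BLOC-3 was split between its subunits. HPS1 and HPS4 form BLOC-3 together, and neither is stable without the other in cells. Hps4 (gene ID 192232, chromosome 5, 112342983 to 112378424 in build GRCm38, like all positions here, with 13 merged exons) had 66.2, 63.7 and 64.4 CPM in the BAP1 KO-labelled libraries, against 29.4, 30.1 and 31.4 CPM in the WT-labelled ones. All 3 BAP1 KO-labelled libraries lay above all 3 WT-labelled ones, by 2.13-fold (log2 1.09, SE 0.046, edgeR adjusted p = 2.26e-09). Hps1 (gene ID 192236, chromosome 19, 42755190 to 42780015, 20 merged exons) had 37.1, 39.5 and 38.3 CPM in BAP1 KO-labelled libraries, against 40.6, 40.7 and 42.4 CPM in WT-labelled libraries. These groups did not overlap either, but the difference of -0.11 (SE 0.046) did not pass the test (edgeR adjusted p = 0.0546). Hps1 was called lower when library totals replaced the TMM factors (-0.17, edgeR adjusted p = 0.00766). It was also called lower when only genes with at least 5 CPM in 3 libraries were fitted (-0.18, edgeR adjusted p = 0.00328). Over the alternatives that test against no difference, the adjusted p of edgeR, DESeq2 or limma-voom ran from 0.00328 to 0.312. Per length, Hps1 stood at 0.397 times the level of Hps4 in BAP1 KO-labelled libraries and at 0.914 times in WT-labelled libraries (deposited normalized RPKM, geometric means, n = 3 each).

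BLOC-2 had 2 subunits that were higher together and 1 that differed little. HPS3, HPS5 and HPS6 make up the complex. Hps3 (gene ID 12807, chromosome 3, 19995945 to 20035334, 17 merged exons) had 75.3, 73.3 and 72.3 CPM in the BAP1 KO-labelled libraries, against 27.4, 27.5 and 21.4 CPM in the WT-labelled ones. The third library labelled WT was the lowest of the 6, and the difference was 2.90-fold (log2 1.54, SE 0.083, edgeR adjusted p = 1.98e-08). Hps5 (gene ID 246694, chromosome 7, 46760466 to 46796065, 22 merged exons) had 120.0, 119.5 and 122 CPM in BAP1 KO-labelled libraries, against 46.3, 45.7 and 43.3 CPM in WT-labelled libraries. It was 2.67-fold higher (log2 1.416, SE 0.042, edgeR adjusted p = 1.37e-10), with little spread in either group. Hps6 (gene ID 20170, chromosome 19, 46003478 to 46006173), which lies in a single exon, had 16.1, 17.6 and 16.6 CPM in BAP1 KO-labelled libraries, against 14.4, 13.6 and 14.0 CPM in WT-labelled libraries. The groups did not overlap, and the difference of 0.26 (SE 0.062) passed the test (edgeR adjusted p = 0.00253) at 1.198-fold. Tested against a log2 fold change of 0.5 as the null (glmTreat), which called 22.4% of all genes tested as higher, 6 of the 10 genes were called higher; Hps6 and Ap3b1 were the 2 called in the first test and not in this one.

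BLOC-1 also held subunits that were higher beside others that were not. Dtnbp1, which encodes dysbindin (gene ID 94245, chromosome 13, 44922079 to 45002096, 18 merged exons), had 83.2, 84.0 and 84.7 CPM in the BAP1 KO-labelled libraries, against 33.6, 34.4 and 35.7 CPM in the WT-labelled ones. It was 2.43-fold higher (log2 1.28, SE 0.042, edgeR adjusted p = 3.35e-10). Bloc1s6, which encodes pallidin (gene ID 18457, chromosome 2, 122738505 to 122749487, 8 merged exons), had 29.8, 28.9 and 30.4 CPM in BAP1 KO-labelled libraries, against 33.2, 34.8 and 29.3 CPM in WT-labelled libraries. The groups overlapped, since the third library labelled WT fell within the range of those labelled BAP1 KO, and the difference of -0.12 (SE 0.066) did not pass (edgeR adjusted p = 0.102). Without that library Bloc1s6 was called lower (-0.16, edgeR adjusted p = 0.00601). It was called lower as well with library totals (-0.19, edgeR adjusted p = 0.0179) and with the 5 CPM filter (-0.20, edgeR adjusted p = 0.0180). Over the alternatives that test against no difference, the adjusted p of edgeR, DESeq2 or limma-voom ran from 0.00601 to 0.386.

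BLOC-1 has 6 further subunits, small coiled proteins that assemble into one rod with dysbindin and pallidin. Of these 6, 3 were called higher, 1 lower and 2 not past the threshold, with a median log2 fold change of 0.03. Among all genes tested, 39.4% were called higher and 42.1% lower. Bloc1s1 was the most changed of the higher ones, at 27.8 ± 1.30 CPM in the BAP1 KO-labelled libraries and 15.1 ± 1.28 CPM in the WT-labelled ones (SD, n = 3 each; log2 0.88, SE 0.070). Its count is uncertain because 55.9% of its exon bases overlap Rdh5 in a preparation that does not mark strand. Bloc1s5 (the muted gene) and Snapin differed by 0.21 (SE 0.064) and 0.14 (SE 0.057). Bloc1s3 and Bloc1s4 differed by -0.08 (SE 0.059) and -0.14 (SE 0.063), neither past the threshold. Bloc1s4 was called lower with library totals and with the 5 CPM filter, and Bloc1s3 with the 5 CPM filter alone. Bloc1s5 and Snapin lost the call with library totals, with the 5 CPM filter, with glmTreat and at an adjusted p under 0.01, Snapin also without BAP1 KO replicate 1 or BAP1 KO replicate 3, and 15.5% of the exon bases of Snapin overlap Ilf2. Bloc1s2 was lower (-1.65, SE 0.19) at 0.588 CPM in BAP1 KO-labelled libraries and 1.85 CPM in WT-labelled libraries. It is uncertain because 20.3% of its 50-base sequences are shared, above all with Bloc1s2-ps, and it was not fitted under the 5 CPM filter. Bloc1s1, Bloc1s2 and Snapin also belong to BORC, which moves lysosomes. Of the 5 subunits of BORC outside BLOC-1, 3 were higher and 1 lower (median 0.21). They ran from Kxd1 at 0.66 (SE 0.055), whose count is uncertain where exons overlap, to Borcs8 at -0.21 (SE 0.068). Borcs8 kept its call under 13 of 17 alternatives. It was lost at an adjusted p under 0.01, with glmTreat, and without BAP1 KO replicate 3 or WT replicate 1.

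**Figure D2:**
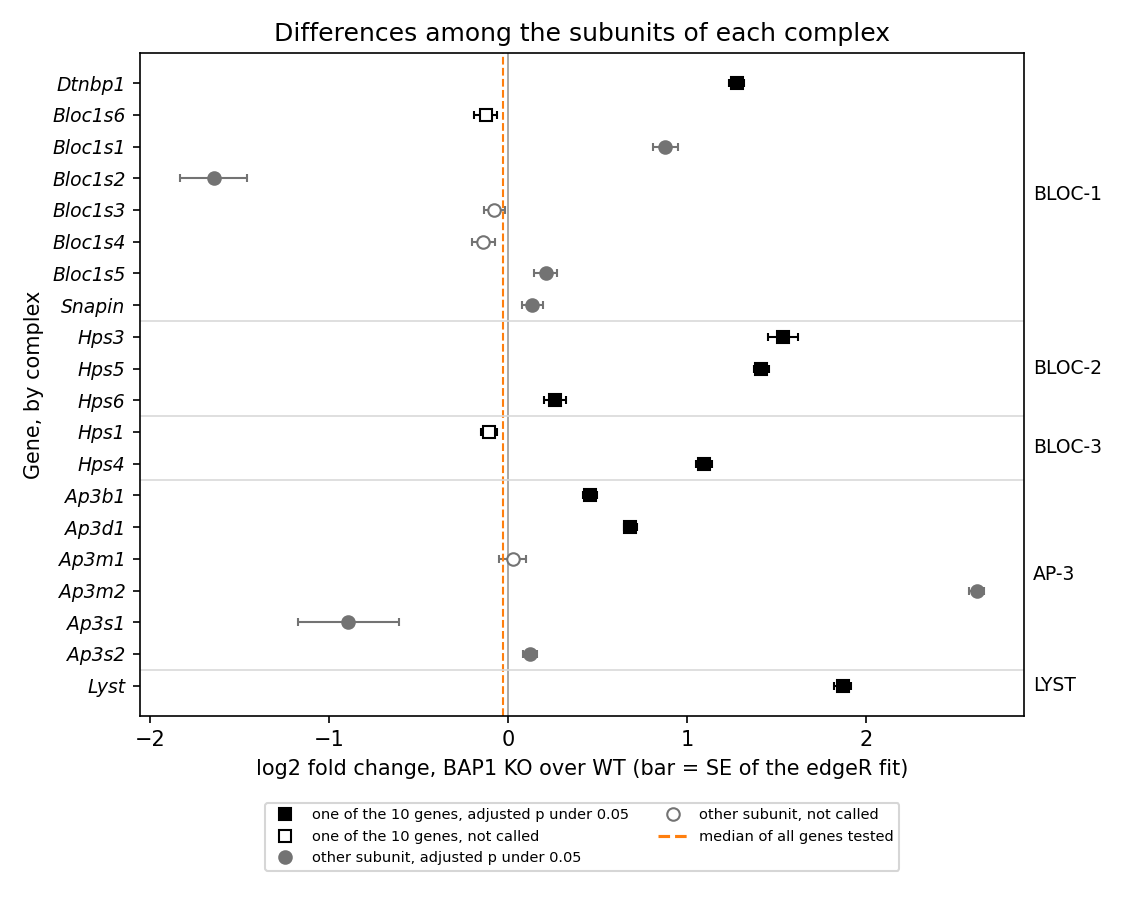
Log2 fold change, BAP1 KO over WT, of every tested subunit of BLOC-1, BLOC-2, BLOC-3 and AP-3 and of Lyst, with the SE of the edgeR fit; squares are the 10 genes, circles other subunits, filled symbols passed the test and the dashed line is the median of all genes tested (-0.03). Ap3m2, Lyst, Hps3, Hps5, Dtnbp1 and Hps4 lie above 1, and Bloc1s2 (-1.65) and Ap3s1 (-0.89) lie farthest to the left.

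Both AP-3 genes among the 10 were higher by less than 2-fold. AP-3 is a heterotetramer of a delta, a beta, a mu and a sigma chain. Ap3d1, the delta chain (gene ID 11776, chromosome 10, 80706956 to 80742303, 29 merged exons), had 291, 295 and 281 CPM in the BAP1 KO-labelled libraries, against 177, 178 and 185 CPM in the WT-labelled ones. The groups lay apart by 1.61-fold (log2 0.68, SE 0.038, edgeR adjusted p = 2.41e-08). Ap3b1, the ubiquitous beta chain (gene ID 11774, chromosome 13, 94358960 to 94566316, 30 merged exons), had 148, 153 and 154 CPM in BAP1 KO-labelled libraries, against 112, 111 and 108 CPM in WT-labelled libraries. It was 1.37-fold higher (log2 0.46, SE 0.038, edgeR adjusted p = 8.57e-07), again without overlap. The neuronal beta chain Ap3b2 had at most 1 read in any library and was not tested.

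Ap3m2 differed more than any of the 10 genes, and the other mu chain did not pass the test. Ap3m2, known in brain as the mu chain of neuronal AP-3 (gene ID 64933, chromosome 8, 22787354 to 22807292), had 205, 209 and 203 CPM in the BAP1 KO-labelled libraries, against 32.5, 33.4 and 34.2 CPM in the WT-labelled ones. It was 6.15-fold higher (log2 2.62, SE 0.042, edgeR adjusted p = 1.15e-12). Ap3m1, the ubiquitous mu chain, had 33.5 ± 1.19 CPM in BAP1 KO-labelled libraries and 32.9 ± 3.88 CPM in WT-labelled libraries (SD, n = 3 each) and did not pass the test (0.03, SE 0.078, edgeR adjusted p = 0.771). Of the summed normalized RPKM of the 2 mu chains, Ap3m2 made up 89.3% ± 0.495 in BAP1 KO-labelled libraries and 58.1% ± 3.19 in WT-labelled libraries (SD, n = 3 each). The count of Ap3m1 is uncertain, since 29.8% of its exon bases overlap Vcl, which encodes vinculin, and 40.7% of its 50-base sequences also occur in another gene model, above all Vcl. The sigma chain Ap3s2 differed by 0.12 (SE 0.041) and lost its call with library totals, with the 5 CPM filter, with glmTreat and at an adjusted p under 0.01. Ap3s1 was called lower (-0.89, SE 0.28) at 2.39 ± 0.0836 CPM in BAP1 KO-labelled libraries and 4.45 ± 2.10 CPM in WT-labelled libraries; 18.8% of its 50-base sequences are shared, above all with Ap3s1-ps1, so that its count is uncertain too. WT replicate 2 was the highest for Ap3s1, at 6.83 CPM, and without it the log2 difference was -0.43. The call of Ap3s1 was lost at an adjusted p under 0.01 and with glmTreat, and the gene was not fitted under the 5 CPM filter.

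Lyst differed most among the 10 genes. Lyst (gene ID 17101, chromosome 13, 13590311 to 13778803, 54 merged exons) had 245, 248 and 237 CPM in the BAP1 KO-labelled libraries, against 67.6, 69.6 and 62.3 CPM in the WT-labelled ones. It was 3.66-fold higher (log2 1.87, SE 0.049, edgeR adjusted p = 4.43e-11), and the groups lay far apart. Its relatives with a BEACH domain went both ways, with 3 of 7 higher and 2 lower (median 0.04), beside 39.4% and 42.1% of all genes tested. Nbeal2, whose loss gives gray platelet syndrome, a disorder of another secretory granule, stood at 28.5 ± 2.07 CPM in BAP1 KO-labelled libraries and 156 ± 5.43 CPM in WT-labelled libraries (SD, n = 3 each; log2 -2.45, SE 0.057). Nbeal1 stood at 117 ± 1.73 CPM in BAP1 KO-labelled libraries and 62.3 ± 15.1 CPM in WT-labelled libraries (log2 0.91, SE 0.13), with WT values from 47.8 to 77.9 CPM.

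The subunits of a complex were set against each other within each library, which needs no scaling between libraries. The pairs Ap3m1 and Ap3m2, and Ap3s1 and Ap3s2, are instead paralogues for the same chain of AP-3. For 8 pairs the log2 ratio of the deposited normalized RPKM was compared between the labels with an exact two-sided permutation test over the 6 libraries, which cannot go below p = 0.1. Hps1 over Hps4 averaged -1.33 ± 0.073 in the BAP1 KO-labelled libraries and -0.13 ± 0.017 in the WT-labelled ones (SD, n = 3 each; exact p = 0.1). Dtnbp1 over Bloc1s6 averaged 2.62 ± 0.034 in BAP1 KO-labelled libraries and 1.22 ± 0.17 in WT-labelled libraries (exact p = 0.1). Both ratios therefore differed by more than a log2 unit, -1.202 for the BLOC-3 pair and 1.40 for the BLOC-1 pair, and neither overlapped between the labels. Within BLOC-2, Hps5 over Hps6 averaged 1.86 ± 0.074 in BAP1 KO-labelled libraries and 0.71 ± 0.063 in WT-labelled libraries (exact p = 0.1), and Hps3 over Hps6 differed by 1.28 (exact p = 0.1). Hps3 over Hps5 averaged -0.53 ± 0.040 in BAP1 KO-labelled libraries and -0.65 ± 0.16 in WT-labelled libraries; these values overlapped (difference 0.13, exact p = 0.2). Ap3b1 over Ap3d1 differed by -0.22 (exact p = 0.1), Ap3m1 over Ap3m2 by -2.59 (exact p = 0.1) and Ap3s1 over Ap3s2 by -0.92 (exact p = 0.1), or by -0.56 without WT replicate 2. Of the 8 ratios 7 did not overlap between the labels, and with 8 tests the adjusted p was 0.114 for those 7, so that none could pass a threshold of 0.05 in a design of this size. The share of non-overlapping ratios among other pairs of genes was not computed. Since 82.7% of single genes tested did not overlap, the count of 7 is not read as a result about these complexes.

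**Figure D3:**
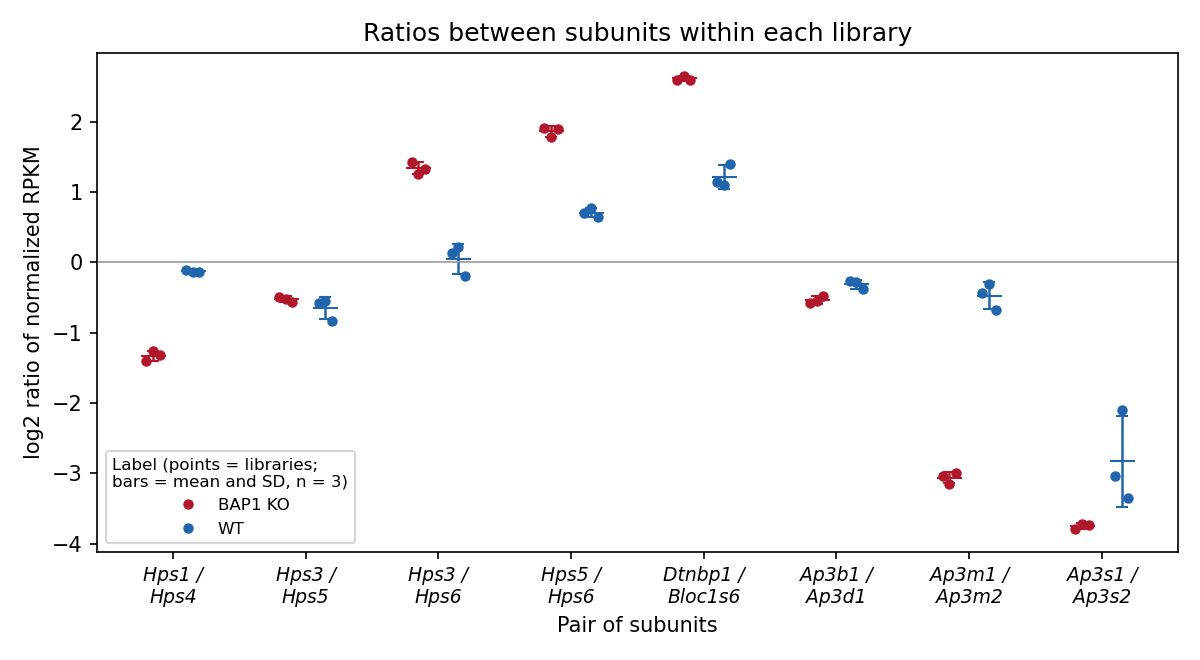
Log2 ratio of the deposited normalized RPKM of paired subunits or paralogous chains in each library, with mean and SD of 3 libraries a label. The Hps3 / Hps5 values overlap between the labels, and the other 7 pairs do not; Ap3m1 and Ap3s1 carry uncertain counts.

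Levels per length were read from the deposited normalized RPKM. In the libraries labelled BAP1 KO the order was Ap3d1 (51.1 ± 1.36), Dtnbp1 (49.2 ± 0.305), Ap3b1 (35.2 ± 0.597), Hps5 (21.3 ± 0.191), Hps4 (18.3 ± 0.429), Lyst (16.6 ± 0.420), Hps3 (14.8 ± 0.354), Bloc1s6 (8.02 ± 0.205), Hps1 (7.26 ± 0.204) and Hps6 (5.86 ± 0.261 normalized RPKM; SD, n = 3 each). No 2 neighbours in that order overlapped in their ranges. In the libraries labelled WT it was Ap3d1 (31.1 ± 1.11), Ap3b1 (25.1 ± 0.498), Dtnbp1 (19.8 ± 0.785), Bloc1s6 (8.56 ± 0.635), Hps4 (8.37 ± 0.359), Hps5 (7.81 ± 0.229), Hps1 (7.65 ± 0.276), Hps3 (4.997 ± 0.630), Hps6 (4.79 ± 0.192) and Lyst (4.45 ± 0.198 normalized RPKM; SD, n = 3 each). Among neighbours there, Bloc1s6 and Hps4, Hps5 and Hps1, Hps3 and Hps6, and Hps6 and Lyst did not differ beyond their spread. Beyond neighbours, Bloc1s6 (7.84 to 9.03) overlapped Hps5 (7.60 to 8.06) and Hps1 (7.44 to 7.96). Hps3 (4.27 to 5.41) likewise overlapped Lyst (4.23 to 4.59). Lyst thus stood last of 10 in WT-labelled libraries and sixth in BAP1 KO-labelled libraries. With exon lengths of GENCODE M21 in place of the authors' lengths, Ap3b1, Ap3d1 and Dtnbp1 were still the 3 highest under both labels, in another order, and Bloc1s6, Hps1 and Hps6 the 3 lowest in BAP1 KO-labelled libraries; Lyst then ranked 9 in WT-labelled libraries.

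**Figure D4:**
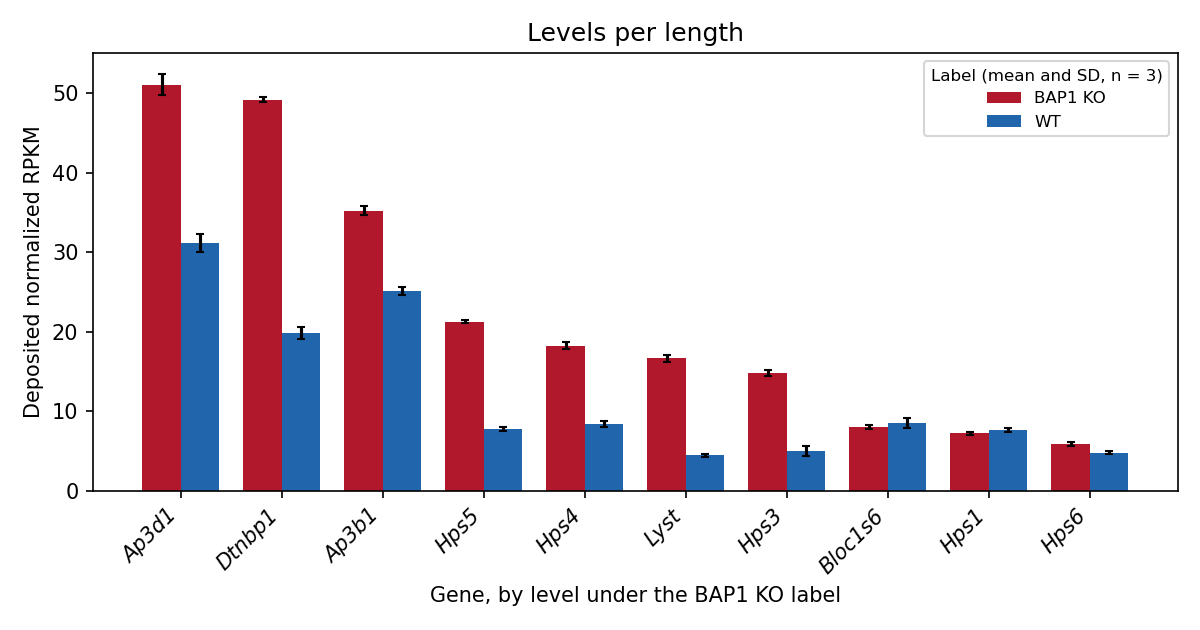
Deposited normalized RPKM of the 10 genes, mean and SD of 3 libraries a label, ordered by the level in BAP1 KO-labelled libraries. Ap3d1, Dtnbp1 and Ap3b1 are the 3 highest under both labels, and Lyst, at 16.6 in BAP1 KO-labelled libraries, is the lowest in WT-labelled libraries at 4.45.

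The partners of these complexes were examined as lists, 65 genes in all, of which 62 passed the count filter. In 36 of them the level was higher and in 14 lower, the remaining 12 missing the threshold, with a median log2 fold change of 0.23. Among all genes tested, 39.4% were called higher and 42.1% lower, and the counts of each list stand beside those shares. HOPS and CORVET are tethers that dock vesicles on endosomes, lysosomes and melanosomes. The list named for them was mostly called higher, with 9 of 10 higher, 1 lower and a median of 0.66. It also holds Vps33b (0.38, SE 0.059) and Vipas39 (0.30, SE 0.042), both called higher, which are subunits of neither complex. The list was not summarized without them. With glmTreat against a log2 fold change of 0.5, 5 of the 10 were called higher and 0 lower. Among all genes tested, these shares were 22.4% and 28.7%. Tgfbrap1, a CORVET subunit, had 133, 130.3 and 128 CPM in the BAP1 KO-labelled libraries, against 48.0, 47.4 and 52.1 CPM in the WT-labelled ones (log2 1.41, SE 0.047). The lower one, Vps18 (-0.11, SE 0.047, edgeR adjusted p = 0.0459), kept its call under 6 of 17 alternatives. Vps33a, mutated in the pigment-diluted buff mouse and named after its values were seen, was higher by 0.97 (SE 0.040).

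Of 11 Rab GTPases and regulators tested, 7 were higher and 3 lower (median 0.25), beside 39.4% and 42.1% of all genes tested. Rab27a, which ties mature melanosomes to actin, had 376, 375 and 386 CPM in the BAP1 KO-labelled libraries, against 44.2, 44.2 and 40.9 CPM in the WT-labelled ones (log2 3.14, SE 0.044). Rab38 and Rab32, the GTPases that BLOC-3 activates, were named after their values were seen. Rab38 stood at 531 ± 12.4 CPM in BAP1 KO-labelled libraries and 124 ± 2.94 CPM in WT-labelled libraries (SD, n = 3 each; log2 2.10, SE 0.038), whereas Rab32 differed by 0.30 (SE 0.063). Rabggta, a subunit of the enzyme that attaches lipid to Rab proteins and the gene of the gunmetal mouse, was lower at -0.78 (SE 0.046).

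Of 8 AP-1 subunits and recycling endosome partners, 3 were higher and 3 lower (median -0.06), beside 39.4% and 42.1% of all genes tested. Ap1s2, a sigma chain, had 153, 141 and 147 CPM in the BAP1 KO-labelled libraries, against 32.4, 44.4 and 24.3 CPM in the WT-labelled ones (log2 2.13, SE 0.16). Ap1m2, the epithelial mu chain, had 3.42, 3.03 and 2.68 CPM in BAP1 KO-labelled libraries, against 79.8, 73.5 and 79.2 CPM in WT-labelled libraries (log2 -4.67, SE 0.078). In those WT-labelled libraries the summed keratinocyte markers were 13036 to 13274 CPM, and a link between these markers and Ap1m2 was not tested. Of 11 SNAREs tested, 6 were higher and 2 lower (median 0.24), beside the same shares of all genes. The SNAREs lay between Stx12 at 0.74 (SE 0.057), a SNARE known to bind pallidin, and Stx6 at -0.91 (SE 0.046).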

How the data were processed

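PolyA RNA of 6 libraries was prepared with a TruSeq RNA v2 kit, which does not mark strand, and sequenced as single reads of 50 bases, per the labels' protocols. GSNAP and GRCm38 were used per the submitters' processing notes; the sources used here name neither the counting tool nor the annotation. Per the file headers, the authors deposited for each gene model the count of uniquely aligned reads and an RPKM adjusted by a size factor. Gene IDs were named from the RefSeq table of GRCm38.p6, which also gave the coordinates (31049 of 36528 matched, 85.0%; the others held 1.09% of the reads). Merged exons, exon overlap and shared 50-base sequences came from GENCODE M21.

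Counts were filtered with filterByExpr (minimum count 10, minimum total 15), which left 17121 genes, given TMM factors of 0.975 to 1.03 and put through glmQLFit and glmQLFTest of edgeR 4.0.16 in R 4.3.3, with no covariate, at an adjusted p under 0.05. The SE of a log2 fold change was taken as its size divided by the root of the test's F. CPM rest on TMM-scaled library sizes, and the deposited RPKM was used only for levels between genes and ratios within a library. DESeq2 1.42.0, limma 3.58.1 and Python 3.11.15 served the alternatives and the other tables; the edgeR step was tested on simulated data. Other scalings, filters and tests, and leaving out each library, were tried. Replicates were numbered by accession and are not paired. The members and lists were chosen with earlier results of these data known. The naming rule takes all 10 genes, Bap1, Mitf, every other BLOC-1 and AP-3 subunit, and of each further list the called gene with the largest and the one with the smallest log2 fold change, at 2 CPM or more in the higher group.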

Additional observations from a re-analysis of the deposited data

How the results depend on the processing

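The calls of Lyst, Hps3, Hps5, Dtnbp1, Hps4 and Ap3d1 kept their direction and their side of the threshold under all 17 alternatives. Under library totals and when genes had to reach 5 CPM in 3 libraries, 2 of the 10 genes were called lower (Hps1 and Bloc1s6), where the fit reported above called 0; leaving out 1 library at a time gave 0 to 1 lower (Bloc1s6, without WT replicate 3) and 8 higher each time. With glmTreat against a log2 fold change of 0.5, which asks for a larger difference by construction, 18 of the 62 genes tested in the partner lists were called higher and 9 lower, against 22.4% and 28.7% of all genes tested, and Bap1 (0.42) was not called. Library totals shifted the median of all genes to -0.09. The cause of the other changes was not tested. No paired analysis was possible because the labels number no replicates. Reads of Ap3b2 were too few for a ratio, and reads shared between overlapping genes limit Bloc1s1, Snapin and Ap3m1.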
